A study of Mus musculus with 34 samples.

Results

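The genes described here encode the extracellular matrix of the brain and the integrins that bind it. They were chosen by symbol. A probe set was taken if its only platform gene symbol began with Col and a digit, Lama, Lamb, Lamc, Itga, Itgb, Mmp, Timp or Thbs, or was Sparc, Sparcl1, Bgn, Dcn, Fn1, Tnc, Vcan, Bcan, Ncan or Lum. This gave 88 genes with 130 probe sets, of 8251 genes and 12422 probe sets without the controls. Each gene is represented by its probe set with the highest mean log2(signal + 16) over the 34 arrays. The prefixes also bring in Itgb2l and Itgb1bp1, a binding protein of the integrin beta-1 tail.

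The study measured RNA of the neocortex and the hippocampus of juvenile male mice on Affymetrix oligonucleotide arrays. Saline, kainate at 15 mg/kg or nicotine at 10 mg/kg was injected intraperitoneally on postnatal day 23, 3 times at intervals of 2 h. Kainate is a glutamate receptor agonist that provokes seizures, nicotine is an agonist of nicotinic acetylcholine receptors, and saline was the solvent of both. Survivors were killed on postnatal day 30, which gave 6 saline, 5 kainate and 6 nicotine arrays in each region. The labels name no strain and no genetic change, and only mice that survived the injections were measured.

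The matrix of the brain differs from that of most organs. Collagen IV and laminins are found mainly in basement membranes, as around vessels, and fibrillar collagens in the connective tissue of the meninges and larger vessels. The space between neurons and glia is filled by hyaluronan-binding proteoglycans such as brevican, neurocan and versican, with tenascins and matricellular proteins. Integrins are receptors of an alpha and a beta chain that join this matrix to the cytoskeleton, and metalloproteinases, held back by the Timp inhibitors, cut it.

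All 34 arrays had been scaled to a 2% trimmed mean between 1000.5 and 1000.6, and correlations between pairs of arrays ran from 0.916 to 0.969. The median signal was between 380.6 and 390.9 on the saline hippocampal arrays and higher on every kainate (403.1 to 438.6) and nicotine (394.2 to 434.6) hippocampal array. The 24 hybridisation and poly-A spikes split the arrays of each region into 3 clusters, of which the largest held 4 or 5 arrays of each group. The 9 hybridisation spikes alone, a grouping added after seeing the data, gave clusters of which the largest held 3 arrays of each group. Neuronal markers, measured for 9 of 10 listed genes, summed to between 95801.6 and 109920 in the saline hippocampus and between 110183 and 117950 in the saline neocortex.

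Kainate was compared with saline in the hippocampus to ask which matrix and integrin genes differed 1 week after the injections. In this comparison 63 of the 88 genes passed the filter on dim probe sets, which removed the dimmest 30% of probe sets by their mean over these arrays (a signal under about 131). The integrin beta-5 chain Itgb5, the proteoglycan biglycan (Bgn) and the matricellular genes Sparc and Sparcl1 were called higher, and none of the 63 was called lower. A gene was called where limma's adjusted p (Benjamini-Hochberg over the 8695 probe sets tested) was under 0.05. The 4 genes called higher stand beside 160 of 8695 probe sets, or 1.84%, called higher, and the 0 called lower beside 83, or 0.955%. Over the 63 genes the median log2 fold change was 0.17 against 0.01 over all probe sets, with 41 above 0 and 22 below. In limma 12 of them had an unadjusted p under 0.05, or 19.0% against 14.2% of all probe sets. In bulk tissue, fewer or more cells of a type and less or more RNA per cell cannot be told apart.

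Itgb5 encodes the beta-5 chain, which pairs with the alpha-v chain of Itgav into a receptor for vitronectin. Its signal was 3245.9, 2889.5, 3050.3, 2803.7 and 3135.7 on the 5 kainate hippocampal arrays. On the 6 saline arrays it ran from 1459.8 to 1960.3, with a median of 1867.4. Every kainate array thus lay above every saline array, and the groups did not overlap. The log2 fold change was 0.76 ± 0.10 (SE), or 1.70-fold, with a limma adjusted p of 3.46e-05. In the order of the 6 group means the kainate hippocampus stood first at 3025 ± 180 (SD, n = 5), and the other 5 groups lay between 1526 ± 162 (nicotine neocortex) and 1781 ± 197 (saline hippocampus; SD, n = 6 each). A further Itgb5 probe set, not used to represent the gene, gave 0.26 ± 0.19 (SE) and was not called (adjusted p = 0.590).

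Bgn encodes biglycan, a small leucine-rich proteoglycan that is secreted into the matrix. Its signal was 2552.1, 2921.1, 2634.6, 2472.4 and 2429.7 on the kainate hippocampal arrays and ran from 1203.8 to 1819.1 on the saline arrays, with a median of 1536.6. These groups did not overlap either. The log2 fold change was 0.79 ± 0.16 (SE), or 1.73-fold (adjusted p = 4.03e-03, limma). The other Bgn probe set gave 0.62 ± 0.31 (SE) and was not called (adjusted p = 0.374). With the log2 values of both Bgn probe sets averaged, the gene missed the threshold at 0.71 (adjusted p = 0.0523).

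Sparc encodes a secreted protein that binds collagen, and Sparcl1, also named hevin, encodes its relative that astrocytes release at synapses. Sparc had signals of 4006.3, 4092.4, 2891.4, 2871.5 and 4799.6 on the kainate hippocampal arrays, all above the saline range of 2018.2 to 2771.5 (median 2378.6). Its log2 fold change was 0.63 ± 0.14 (SE), or 1.55-fold (adjusted p = 9.66e-03, limma). The 5 kainate arrays were not alike, since arrays 3 and 4 lay just above the highest saline array and the other 3 well above it. Sparcl1 had signals of 16024.4, 16572.2, 13520.9, 15067.0 and 17467.6 after kainate and of 11827.8 to 14146.2 with saline (median 12856.1). Here 4 of 5 kainate arrays lay above the saline range and the third lay inside it. The log2 fold change of Sparcl1 was 0.29 ± 0.07 (SE), or 1.23-fold (adjusted p = 0.0343, limma).

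**Figure D1:**
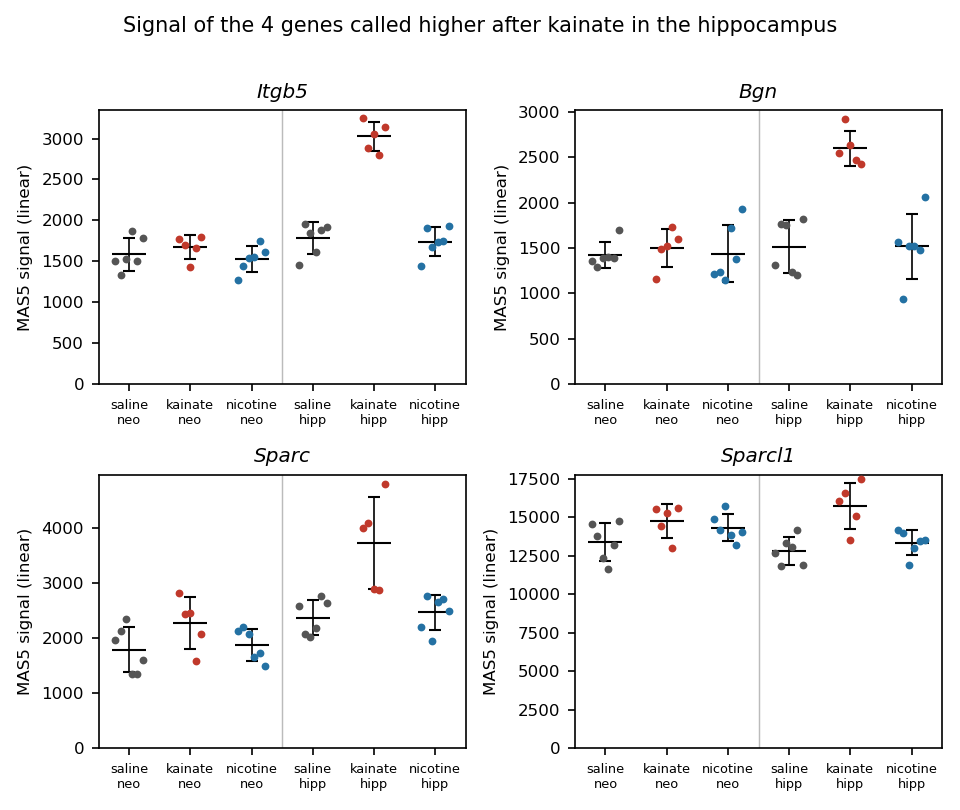
Signal (linear MAS5 scale, axis from 0) of Itgb5, Bgn, Sparc and Sparcl1 on each array, by treatment in the neocortex (neo) and hippocampus (hipp). Points are arrays, and black bars give the mean and SD of a group (n = 6 saline, 5 kainate, 6 nicotine). The kainate hippocampal arrays of Itgb5 (2803.7 to 3245.9) and Bgn (2429.7 to 2921.1) stand above all others shown for these genes.

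The Sparcl1 call ended without kainate array 1, 2, 4 or 5 (adjusted p = 0.0744, 0.0886, 0.0514 and 0.112) and without saline array 1, 2 or 6 (0.0574, 0.0792 and 0.0767), and it also ended with no filter (0.0517) and with no intensity trend (0.0986), while Itgb5, Bgn and Sparc stayed called without any single array of the comparison. Centring each array on its median moved the median of all probe sets by -0.11 on the log2 scale, turned the split over all probe sets from 160 higher and 83 lower into 130 higher and 313 lower, and left only Bgn and Itgb5 called, with Sparc at 0.52 (adjusted p = 0.0508) and Sparcl1 at 0.18 (0.271). Within the largest hybridisation cluster, with 3 arrays a group, Itgb5 was called and Bgn (0.77, adjusted p = 0.160), Sparc (0.63, 0.165) and Sparcl1 (0.24, 0.465) were not.

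Promoter sequences are shown for the 3 genes whose kainate and saline arrays did not overlap in the hippocampus, since these rose together. Of all 8695 probe sets tested, 201 (2.31%) had every kainate array above every saline array. RefSeq promoter entries (build GRCm38.p6) matched 60 of the 88 genes with 68 entries, and 250 bases before each start were searched on both strands. The GC box (GGGCGG) was present in 32.7% of all 32851 promoters and in 50% of the 68 entries. An AP-1 motif (TGANTCA) was present in 6.75% and 10.3%, a PU.1 motif (GAGGAAGT) in 2.44% and 7.35%, a TATA motif (TATAAA) in 12.4% and 19.1%, and a STAT motif (TTCNNNGAA) in 7.02% and 1.47%. Capitals mark matches, 5′ to 3′ on the strand of the gene: Itgb5 at chr16:33829415-33829664 on the plus strand, Bgn at chrX:73483351-73483600 on the plus strand, and Sparc at chr11:55420081-55420330 on the minus strand.
Itgb5: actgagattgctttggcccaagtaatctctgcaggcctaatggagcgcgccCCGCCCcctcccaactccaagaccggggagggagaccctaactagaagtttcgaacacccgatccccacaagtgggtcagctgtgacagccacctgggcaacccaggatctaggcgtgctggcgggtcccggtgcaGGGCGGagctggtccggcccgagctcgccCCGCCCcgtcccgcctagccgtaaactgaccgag
Bgn: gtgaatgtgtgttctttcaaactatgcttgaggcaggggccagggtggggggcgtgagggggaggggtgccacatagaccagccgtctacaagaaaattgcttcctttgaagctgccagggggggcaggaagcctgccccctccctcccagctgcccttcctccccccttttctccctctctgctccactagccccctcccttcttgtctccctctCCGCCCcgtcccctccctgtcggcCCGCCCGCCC
Sparc: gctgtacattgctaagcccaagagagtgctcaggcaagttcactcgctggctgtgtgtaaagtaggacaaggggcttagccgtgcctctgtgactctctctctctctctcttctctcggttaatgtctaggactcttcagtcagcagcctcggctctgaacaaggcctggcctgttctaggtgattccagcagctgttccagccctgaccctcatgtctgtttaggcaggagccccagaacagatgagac
Itgb5 and Bgn each held 3 GC boxes, all matches in these windows, and 2 of those of Bgn overlap at the end nearest the start. The Sparc window held none of the 5 motifs. A match is a description of the letters and does not show that a factor binds there.

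The other alpha and beta chains did not pass the test in the hippocampus. Of 6 alpha chains tested of 12 measured, 0 were called in limma, and 2, Itgax and Itgav, had an unadjusted p under 0.05. Itgax, the alpha chain of the leukocyte integrin CD11c, had signals of 390.1, 459.7, 414.6, 584.7 and 591.4 after kainate and of 118.3 to 491.8 with saline (median 253.9). The estimate was 0.92 ± 0.27 (SE) with an adjusted p of 0.0734, the groups overlapped, and without saline array 4 it was 1.12 and called (adjusted p = 0.0144). Within the largest cluster by all spikes it was called too (1.17, 0.0227). Itgav, the partner chain of Itgb5, gave 0.44 ± 0.16 (SE; adjusted p = 0.170), with kainate signals of 2886.6 to 4464.8 and saline signals of 1760.6 to 3273.9. Itgb1, the beta chain shared by most matrix receptors, had means of 3566 ± 1066 (SD, n = 5) after kainate and 3505 ± 415 (SD, n = 6) with saline, a difference well within the spread.

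The other 7 genes listed singly were not called. Brevican (Bcan), which coats perineuronal nets and synapses, had a log2 fold change of -0.20 ± 0.08 (SE; adjusted p = 0.285), neurocan (Ncan) of 0.11 ± 0.15 (SE; 0.805) and versican (Vcan) of -0.06 ± 0.32 (SE; 0.962). Decorin (Dcn), like biglycan a small leucine-rich proteoglycan, gave 0.16 ± 0.15 (SE; adjusted p = 0.699), and its 95% interval ran from -0.16 to 0.48. Lumican (Lum) gave 0.37 ± 0.26 (SE; 0.569), fibronectin (Fn1) 0.19 ± 0.19 (SE; 0.730) and tenascin C (Tnc) -0.20 ± 0.23 (SE; 0.755). These intervals are wide for Vcan (-0.74 to 0.61) and Lum (-0.18 to 0.92), so changes inside them could not be told from 0.

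Collagens, laminins and thrombospondins gave no call in limma. Of 31 collagen genes 25 were tested, 15 lay above 0 and 10 below, and 2 had an unadjusted p under 0.05. These were Col6a3, a chain of the microfibrillar collagen VI, at 0.82 ± 0.32 (SE; adjusted p = 0.219), and Col19a1 at -0.41 ± 0.15 (SE; 0.180). Of 9 laminin chains 7 were tested and 0 had an unadjusted p under 0.05, with the largest estimate for Lama2 at 0.59 ± 0.38 (SE; adjusted p = 0.516). Thbs2, a thrombospondin, gave 0.37 ± 0.39 (SE; 0.730), and neither it nor Thbs3 had an unadjusted p under 0.05.

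Matrix-cutting enzymes were dim. Of 13 Mmp genes 4 passed the filter and 0 were called, with 2 of them, Mmp14 and Mmp11, at an unadjusted p under 0.05. Mmp14, a membrane-bound enzyme that activates others, gave 0.33 ± 0.14 (SE; adjusted p = 0.287), and Mmp11 gave -0.72 ± 0.31 (SE; 0.275). Mmp2, Mmp3, Mmp9 and Mmp13 fell below the filter, so these arrays say little about them. Timp2, an inhibitor of these enzymes, had signals of 2719.9, 3195.3, 3774.9, 4282.0 and 2979.5 after kainate and of 1594.0 to 3046.6 with saline. Its estimate was 0.51 ± 0.16 (SE), with overlapping groups and an adjusted p of 0.0918. In a fit on all 34 arrays Timp2 and Itgax were called, at adjusted p = 0.0144 and 0.0269.

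**Figure D2:**
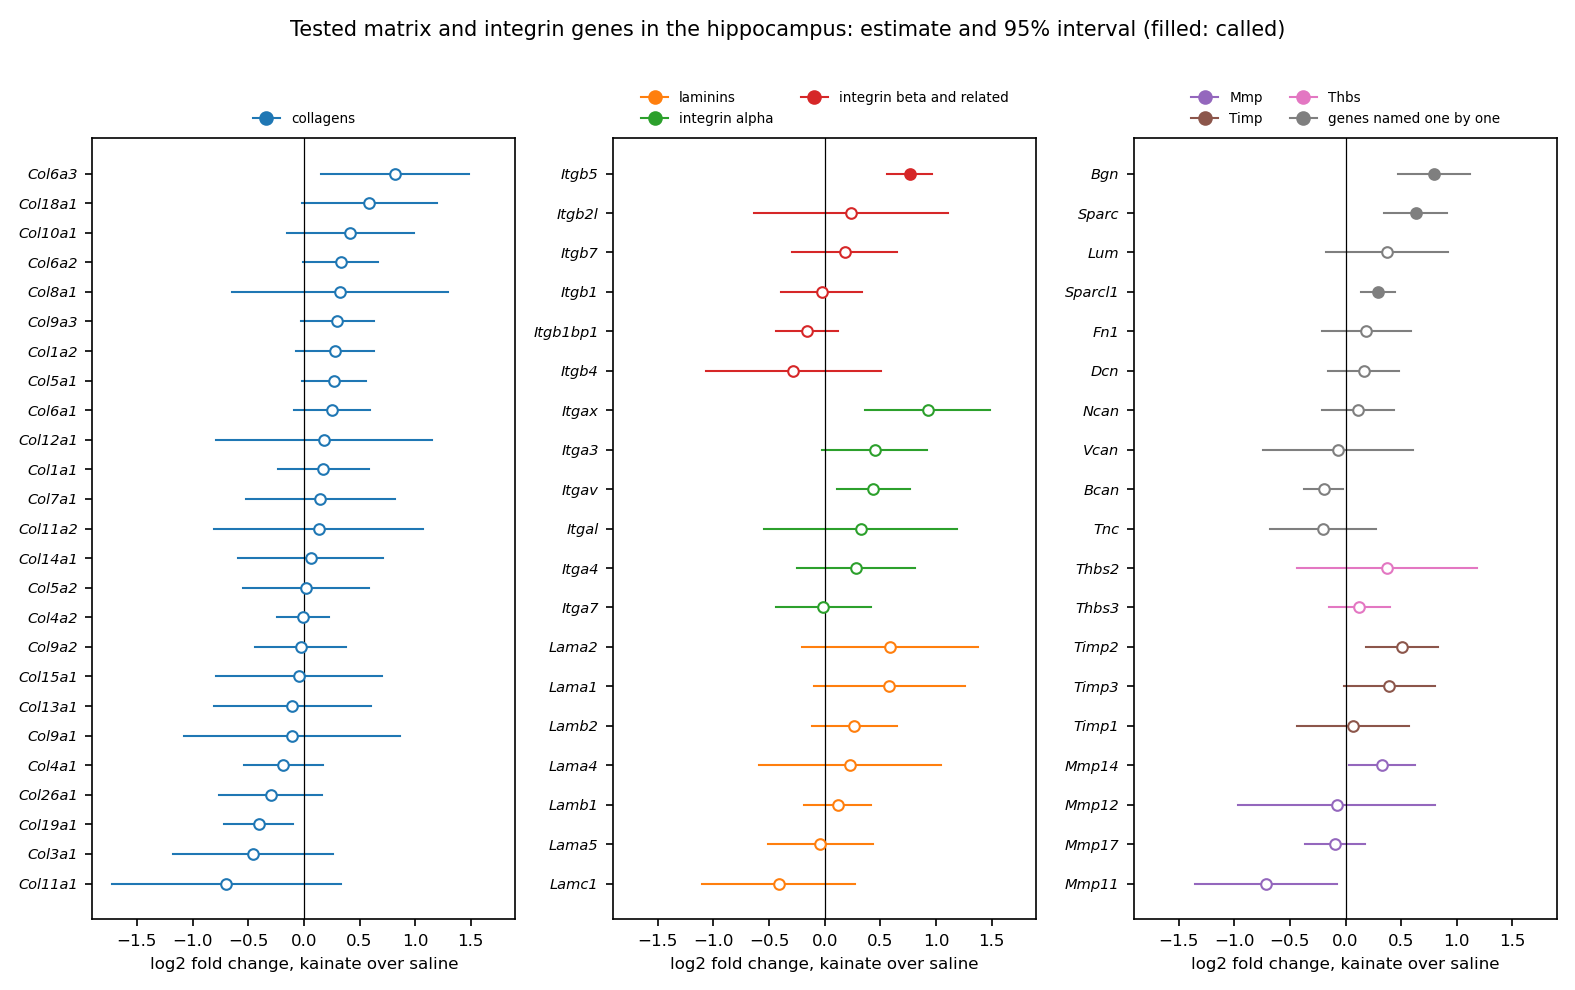
Log2 fold change of kainate over saline in the hippocampus for the 63 tested genes, with the 95% interval of the limma fit, grouped by family (n = 5 kainate and 6 saline arrays). Filled points are the 4 called genes, Itgb5, Bgn, Sparc and Sparcl1, and open points are not called.

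The leukocyte integrins Itgam and Itgb2, the alpha and beta chain of complement receptor 3 (CD11b and CD18), lay below the filter in the hippocampus and were singled out after their values were seen. Itgam had signals of 448.1, 352.9, 177.1, 138.7 and 361.7 after kainate and of 28.1 to 155.9 with saline (median 72.6). Itgb2 had 316.7, 254.1, 84.0, 251.3 and 311.0 after kainate and 12.1 to 196.6 with saline (median 81.7). For each gene 4 of 5 kainate arrays lay above the saline range, and the low array was the fourth for Itgam and the third for Itgb2. In a limma fit without the filter Itgam was 1.78 ± 0.39 (SE) higher after kainate (adjusted p = 0.0128), and Itgb2 was at 1.42 ± 0.49 (SE; adjusted p = 0.190). Itgam was also higher than after nicotine in that fit, by 1.99 ± 0.39 (SE; adjusted p = 4.81e-03). These estimates are of dim probe sets on the log2(signal + 16) scale, which understates change at low signal.

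**Figure D3:**
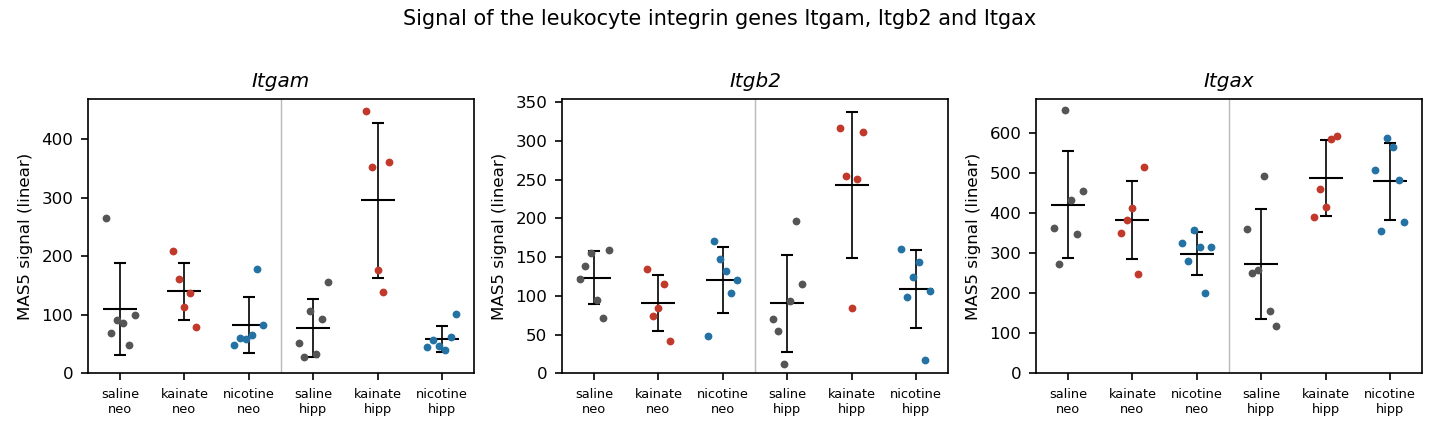
Signal (linear MAS5 scale, axis from 0) of Itgam, Itgb2 and Itgax on each array, by treatment in the neocortex (neo) and hippocampus (hipp), with the mean and SD of each group (n = 6 saline, 5 kainate, 6 nicotine). Itgam and Itgb2 were high on 4 of 5 kainate hippocampal arrays each, whereas Itgax had similar means after kainate (488 ± 95) and nicotine (479 ± 96) there.

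Some cell type markers were called higher as well. Of 12 tested microglia and macrophage markers 11 were called higher after kainate in the hippocampus, with a median log2 fold change of 1.84. The filter used the mean over the arrays of a region, kainate arrays included. A dim marker that rises after kainate therefore passes it more easily, and the count and median hold only for the markers that passed. Of the 15 measured, 12 passed in the hippocampus and 10 in the neocortex. The summed signal of the 15 measured was 47784.6 to 77949.4 after kainate and 17141.5 to 19855.9 with saline. Of 9 tested astrocyte markers Gfap, Aqp4 and Gja1 were called higher, and the median log2 fold change of the 9 was 0.27. The summed signal of the 10 measured, in which bright genes weigh most, was 63446.8 to 73576.6 after kainate and 41254.3 to 45700 with saline. Their part in the rise of Itgb5, Bgn, Sparc and Sparcl1 was not tested. Markers of endothelial cells (11 tested), mural cells (8), choroid plexus and meninges (8), blood (3), myelin (5) and neurons (9) gave 0 calls in limma there. The summed endothelial signal was 7425 to 9290.5 after kainate and 7862.6 to 8563.8 with saline, and the mural sum was 3036.3 to 4136.1 and 3152 to 3825.1, so both overlapped. Of the 3 tested interneuron markers only Sst was called lower, and their median log2 fold change was -0.10. The summed interneuron signal was 10329.3 to 13483.1 after kainate and 13990.5 to 17907.8 with saline, and so did not overlap. The neuronal sum was 90711.6 to 100356 after kainate and 95801.6 to 109920 with saline, and so overlapped. No measured marker was at 0 on any array.

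The other matrix and adhesion genes, 93 symbols in 6 lists, were followed beside these. Cyr61, Ctgf and Hevin among them are second names of Ccn1, Ccn2 and the member Sparcl1. Of 56 tested in the hippocampus 3 were called higher after kainate, beside 1.84% of all probe sets, and 0 lower, beside 0.955%. Ptprz1, a receptor phosphatase and proteoglycan of glia, gave 0.50 ± 0.11 (SE; adjusted p = 8.07e-03). Fermt3, the kindlin that activates integrins of blood cells, gave 1.16 ± 0.21 (SE; 1.88e-03), and the tetraspanin Cd9, which associates with integrins, 1.07 ± 0.21 (SE; 3.79e-03). None of the 10 tested genes of collagen processing, 9 of basement membrane, 7 of other proteases and inhibitors or 12 of other matricellular proteins was called.

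In the neocortex kainate called none of the 63 tested genes, beside 1 of 8695 probe sets (0.0115%). In limma 3 of the 63 had an unadjusted p under 0.05, or 4.76% against 5.57% of all probe sets, and the median log2 fold change was 0.04 against 0.00. The smallest p belonged to Col6a1, a collagen VI chain, at 0.33 ± 0.11 (SE; adjusted p = 0.811). Bcan followed at -0.27 ± 0.10 (SE; 0.839) and Sparc at 0.35 ± 0.16 (SE; 0.889). The fibrillar collagen chain Col5a2 at 0.47 ± 0.25, Sparcl1 at 0.14 ± 0.08 and Fn1 at 0.22 ± 0.15 (SE; adjusted p = 0.903 for each) were next. Itgb5 stood at 0.08 ± 0.10 (SE; 0.950), with kainate signals of 1425.7 to 1793.4 inside the saline range of 1329.2 to 1868.9, and Bgn stood at 0.07 ± 0.13 (SE; 0.969). Of 10 tested microglia and macrophage markers 0 were called in limma there, and of 9 astrocyte markers only Gfap. In the hippocampus 12 microglia and macrophage markers had passed the filter, so the counts of the regions are not of the same set.

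The difference between the regions was itself tested, as the kainate effect in the hippocampus minus that in the neocortex. Itgb5 was the only one of the 63 genes called higher in this test, beside 63 of 8695 probe sets (0.725%). Its difference was 0.69 ± 0.14 (SE; adjusted p = 3.89e-03), with a 95% interval from 0.41 to 0.97. Bgn differed by 0.72 ± 0.21 (SE), which was not called (adjusted p = 0.126) but was in a fit on the 22 saline and kainate arrays (0.0481). Itgax gave 1.05 ± 0.35 (SE; 0.246), Timp2 0.51 ± 0.18 (SE; 0.288), Col19a1 -0.40 ± 0.20 (SE; 0.557) and Col6a2 0.34 ± 0.20 (SE; 0.656). Sparc at 0.28 ± 0.22 (SE; 0.755) and Sparcl1 at 0.15 ± 0.10 (SE; 0.711) are not shown to differ between the regions, and their intervals ran from -0.16 to 0.72 and from -0.06 to 0.36. After median centring, which moved the median of all probe sets by -0.10 here and the split of calls from 63 higher and 6 lower to 35 and 12, Itgb5 missed the threshold at 0.59 (adjusted p = 0.0504). It missed it too with the probe sets of the gene averaged (0.46, 0.177) and within the largest hybridisation cluster (0.53, 0.325). Of the other matrix and adhesion genes Fermt3 was called higher in this test.

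**Figure D4:**
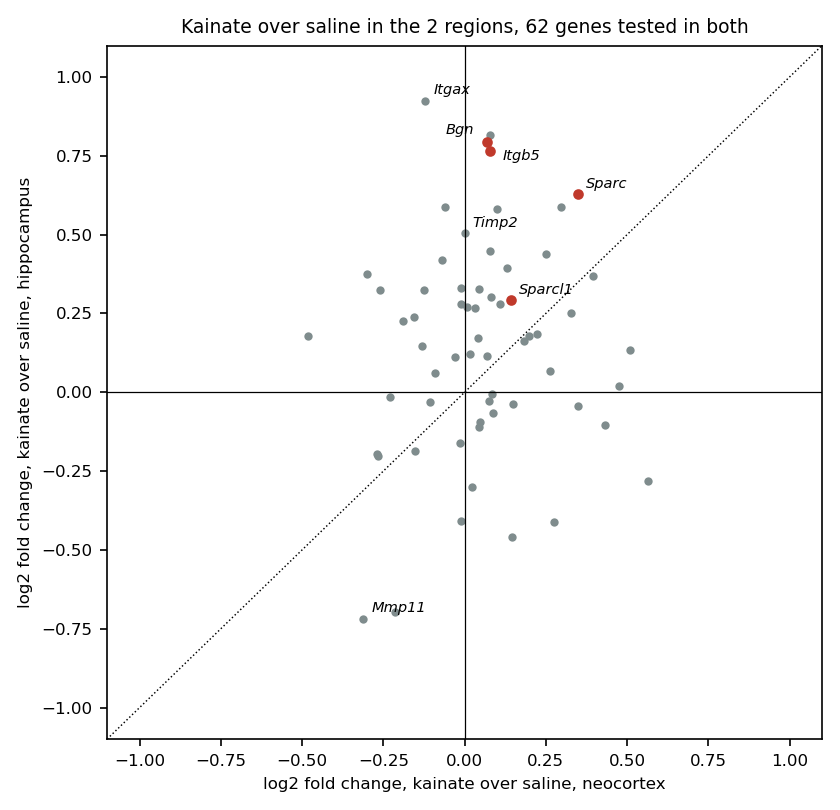
Log2 fold change of kainate over saline in the neocortex (horizontal) and in the hippocampus (vertical) for the 62 genes tested in both regions; the dotted line marks equal change. The 4 genes called in the hippocampus are red, and Itgb5 (0.08 and 0.76) and Bgn (0.07 and 0.79) lie far above the line.

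Nicotine called none of the genes in either region, beside 0 of 8695 probe sets (0%) in the hippocampus and 0 of 8695 (0%) in the neocortex. In limma 3 of 63 had an unadjusted p under 0.05 in the hippocampus, or 4.76% against 5.80% of all probe sets, and 4 of 63 in the neocortex, or 6.35% against 9.60%. In the hippocampus Itgax was at 0.90 ± 0.26 (SE; adjusted p = 0.851), with nicotine signals of 355.5 to 587.4 and saline signals of 118.3 to 491.8. This estimate and the one for kainate share the saline arrays. Itgb2l at -0.94 ± 0.40 and Mmp14 at 0.30 ± 0.14 (SE; 0.851 for both) followed. Itga3, a laminin receptor chain, at 0.43 ± 0.22, Lama2 at 0.70 ± 0.36 and the fibrillar collagen chain Col5a1 at 0.25 ± 0.13 (SE; 0.853 for each) came next. Itgb5 (-0.03 ± 0.09), Bgn (-0.01 ± 0.15) and Sparc (0.05 ± 0.13, all SE) had 95% intervals of -0.23 to 0.16, -0.32 to 0.30 and -0.22 to 0.33.

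In the neocortex the smallest p after nicotine was that of Itgav, at 0.67 ± 0.17 (SE; adjusted p = 0.297). Its signals were 3817.0 to 7002.2 with a median of 6585.7 after nicotine, and 3142.3 to 5635.3 with a median of 3499.2 with saline. The groups overlapped, because saline array 2 was high and nicotine array 6 low. Timp2 gave -0.22 ± 0.08 (SE; 0.404) and Bcan -0.26 ± 0.10 (SE; 0.415). All 6 nicotine arrays of Bcan (5294.3 to 6347.8) lay below all saline arrays (6383.1 to 7773.3), although the gap was small, and 22 of 8695 probe sets (0.253%) had all nicotine arrays lower. Itgax at -0.44 ± 0.21 (SE; 0.511), Col5a1 at 0.19 ± 0.10 and Col12a1 at -0.65 ± 0.33 (SE; 0.527 for both) completed the list. No marker and no other matrix or adhesion gene was called after nicotine in either region.

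Kainate was also set against nicotine, which was injected on the same schedule. In the hippocampus 3 of the 63 genes were called higher, beside 177 of 8695 probe sets (2.04%), and 0 lower, beside 33. Itgb5 was 1.74-fold higher than after nicotine (0.80 ± 0.10 SE, adjusted p = 2.02e-05), with nicotine signals of 1441.3 to 1935.1. Bgn was 1.75-fold higher (0.80 ± 0.16 SE, 3.70e-03), with nicotine signals of 941.4 to 2067.4. Sparc was 1.49-fold higher (0.57 ± 0.14 SE, 0.0223), with nicotine signals of 1957.7 to 2768.1. For all 3 the kainate and nicotine arrays did not overlap, as was so for 197 of 8695 probe sets (2.27%). The kainate arrays are those of the comparison with saline, so these values are no second measurement of the kainate group.

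Col9a3, a chain of collagen IX, gave 0.51 ± 0.16 (SE; adjusted p = 0.108), Col19a1 -0.47 ± 0.15 (SE; 0.131) and Sparcl1 0.23 ± 0.07 (SE; 0.132) against nicotine. With the replicate number as a block, since same-numbered kainate and nicotine hippocampal arrays deviated together, 5 genes were called in place of 3. Col9a3 (0.59, adjusted p = 7.74e-03) and Col19a1 (-0.50, 0.0368) joined Itgb5, Bgn and Sparc there. With the probe sets of Col9a3 averaged its value was -0.05 (adjusted p = 0.985). The Sparc call ended without kainate array 1, 2 or 5 (adjusted p = 0.0701, 0.0769 and 0.0931) and without nicotine array 1 or 3 (0.0563 and 0.0557), after median centring (0.0862), with no intensity trend (0.0534) and in the largest hybridisation cluster (0.41, 0.582), where Bgn was not called either (1.03, 0.0511). Sparcl1 was called without kainate array 3 (0.0369) and Col9a3 without nicotine array 3 (0.0396). With the probe sets of Bgn averaged its value was 0.45 (adjusted p = 0.358). Ptprz1, Smoc1, Fermt3, Cd9 and Vcam1, of 56 other matrix and adhesion genes tested, were called higher than after nicotine. Of the markers 11 of 12 for microglia and macrophages and 3 of 9 for astrocytes were called higher. These counts are of markers past the same filter, whose mean includes the kainate arrays. Over all probe sets 2.04% were called higher.

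In the neocortex kainate against nicotine called 0 of the 63 genes, beside 3 of 8695 probe sets (0.0345%), and 2 of the 63 had an unadjusted p under 0.05 in limma, or 3.17% against 3.99% of all probe sets. Timp2 was at 0.22 ± 0.08, Itgav at -0.42 ± 0.18, Col5a1 at -0.19 ± 0.10, Fn1 at 0.27 ± 0.15, Col6a1 at 0.20 ± 0.11 and the laminin chain Lamc1 at 0.32 ± 0.19 (SE; adjusted p = 0.998 for each).

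The saline arrays show how the regions differ without a drug. In the saline hippocampus 2 of the 63 genes were called higher than in the saline neocortex, beside 466 of 8695 probe sets (5.36%), and 4 lower, beside 451 (5.19%). Decorin and the laminin chain Lamb1 were higher in the hippocampus, and Col5a1, Itgav, Timp2 and neurocan were lower. The median over the 63 genes was 0.00, as over all probe sets. In limma 16 of the 63 had an unadjusted p under 0.05, or 25.4% against 21.7% of all probe sets.

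Dcn, which binds collagen fibrils and growth factors, showed the largest difference. Its signals were 3679.3, 2779.6, 3165.8, 2203.3, 3118.4 and 2896.7 in the saline hippocampus and 1058.3, 1357.0, 857.6, 907.4, 834.0 and 801.9 in the saline neocortex. The difference was 1.61 ± 0.15 (SE), or 3.05-fold (adjusted p = 1.83e-10, limma), and no array of one region reached the other. In the order of the 6 group means the 3 hippocampal groups came first, with kainate at 3316 ± 417 (SD, n = 5), saline at 2974 ± 488 and nicotine at 2569 ± 688 (SD, n = 6 each). The neocortical groups followed with kainate at 1090 ± 130 (SD, n = 5), saline at 969 ± 210 and nicotine at 937 ± 166 (SD, n = 6 each). Within a region these neighbours did not differ beyond their spread, and no drug comparison of Dcn was called.

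Lamb1, a laminin chain of basement membranes, had signals of 417.2 to 585.6 in the saline hippocampus and 210.2 to 401.3 in the saline neocortex, which did not overlap (0.56 ± 0.16 SE, adjusted p = 0.0207). Col5a1 had signals of 863.8 to 1224.6 and 1321.5 to 1740.6 (-0.52 ± 0.11 SE, 1.32e-03), again without overlap. All hippocampal arrays were higher for 285 of 8695 probe sets (3.28%) and lower for 255 (2.93%), which hold Lama4 too, though its difference was not called (-0.60, adjusted p = 0.328). Itgav was lower in the hippocampus by 1.48-fold (-0.56 ± 0.17 SE, 0.0244), Timp2 by 1.31-fold (-0.39 ± 0.12 SE, 0.0320) and Ncan by 1.30-fold (-0.38 ± 0.13 SE, 0.0437). For these last 3 the arrays overlapped, with saline hippocampal array 1 of Ncan, at 852.0, above every neocortical array. Sparc (0.42 ± 0.15 SE, 0.0599) and Itgax (-0.69 ± 0.24 SE, 0.0595) lay just outside the threshold. Bcan (0.12 ± 0.09), Fn1 (0.16 ± 0.17), Sparcl1 (-0.06 ± 0.07), Tnc (0.16 ± 0.24), Vcan (0.48 ± 0.41), Lum (0.48 ± 0.30) and Bgn (0.07 ± 0.14, all SE) were not called.

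**Figure D5:**
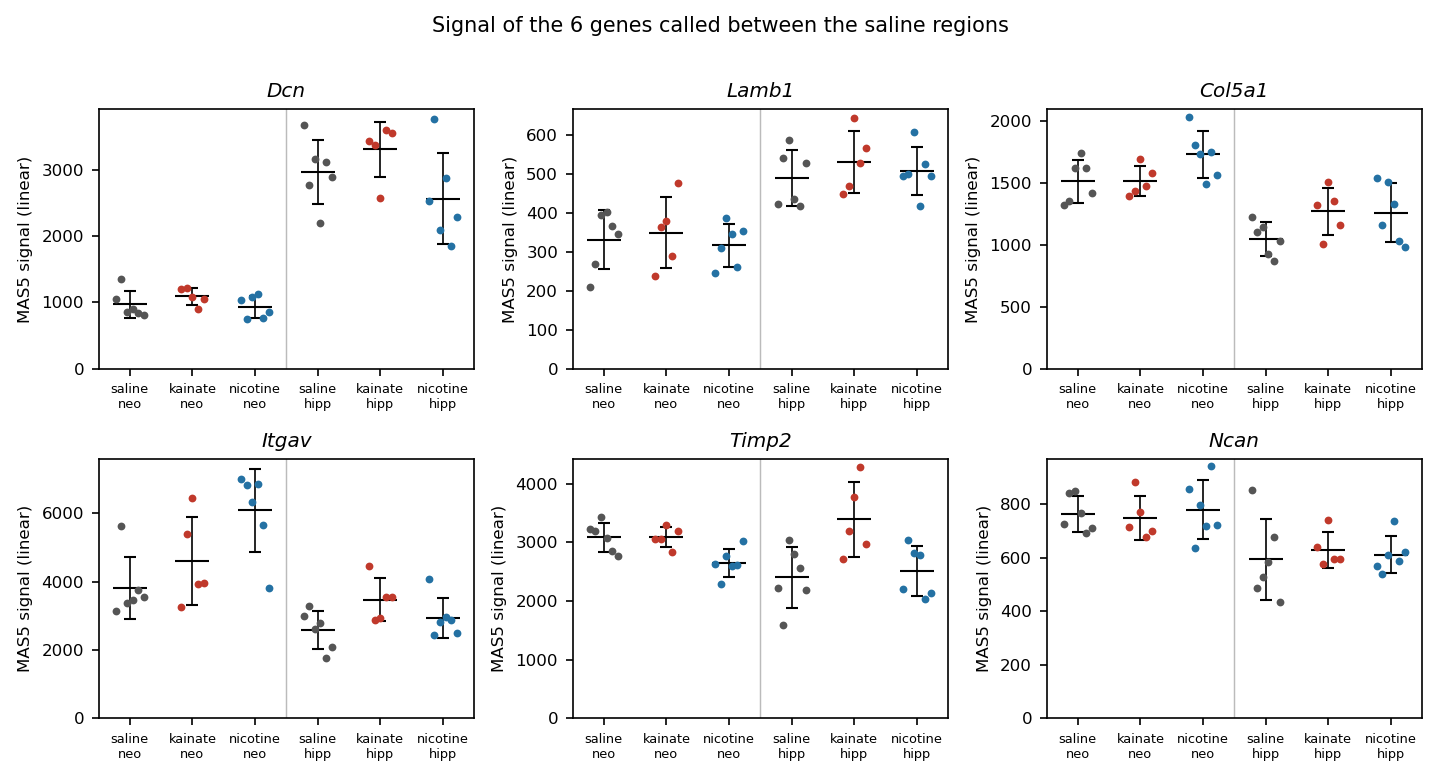
Signal (linear MAS5 scale, axis from 0) of Dcn, Lamb1, Col5a1, Itgav, Timp2 and Ncan on each array, by treatment in the neocortex (neo) and hippocampus (hipp), with the mean and SD of each group (n = 6 saline, 5 kainate, 6 nicotine). Dcn separates the regions in every treatment, with 1847.2 the lowest hippocampal and 1357.0 the highest neocortical array.

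The weaker of these calls rested on single arrays and settings. The Itgav call ended without saline hippocampal array 5 (adjusted p = 0.0849) or 6 (0.0671) or neocortical array 2 (0.0892), and the Lamb1 call without hippocampal array 3 (0.0554) or neocortical array 1 (0.0777) or 2 (0.0541). The Timp2 call ended without hippocampal array 1, 2 or 6 (0.0625, 0.129 and 0.0687) and neocortical array 1, 2 or 3 (0.0594, 0.0566 and 0.0779). The Ncan call ended without any of hippocampal arrays 2, 3, 4 and 6 (0.113, 0.0880, 0.0635 and 0.146) or neocortical arrays 1 to 4 (0.0548, 0.0901, 0.0988 and 0.0678). With the probe sets of a gene averaged Timp2 was at -0.10 (adjusted p = 0.835), Itgav at -0.36 (0.387), Lamb1 at 0.40 (0.133) and Ncan at -0.35 (0.181). With the 12 saline arrays alone Lamb1 (0.0687), Timp2 (0.0790) and Ncan (0.150) were not called, and Ncan was also lost with median centring (0.0773), quantile normalization (0.0577) and no filter (0.0647). Sparc was called without hippocampal array 3 (0.0462) or neocortical array 2 or 3 (0.0404 and 0.0242). Without hippocampal array 6, and without neocortical array 1, 3 genes were called in place of 6. Dcn stayed called in every alternative that was run, and Col5a1 in all but the fit with the clusters by all spikes as a block (-0.48, adjusted p = 0.0525) and that on the largest hybridisation cluster (-0.43, 0.130). With that block Dcn was the only 1 of the 6 called, and Itgav (0.244), Lamb1 (0.181), Timp2 (0.279) and Ncan (0.327) were not. Each cluster lay within a single region, so the block could not adjust the difference between regions. It entered as a correlation between arrays of a cluster, and the calls it ended do not show a technical effect.

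Beside these genes, 11 of 59 tested other matrix and adhesion genes were called higher in the saline hippocampus and 1 lower. The higher ones included the collagen chaperone Serpinh1 (0.50 ± 0.13 SE, adjusted p = 6.05e-03), Pcolce, an enhancer of procollagen cleavage (0.63 ± 0.20 SE, 0.0311), the glypican Gpc4 (1.03 ± 0.25 SE, 4.87e-03), Matn2, a matrilin (0.86 ± 0.14 SE, 1.85e-05), and Ptk2b, a focal adhesion kinase (1.02 ± 0.12 SE, 2.34e-08). P4hb, Ptprz1, Gpc1, Vcl, Cd9 and Cd81 were also higher, and the matricellular gene Ccn2 was lower (-1.32 ± 0.26 SE, 3.23e-04). Over all probe sets 5.36% were called higher and 5.19% lower. Of 66 tested markers 6 were called higher in the hippocampus and 3 lower. Higher were Gfap and Aqp4 of 9 astrocyte markers, Folr1 of 7 for choroid plexus and meninges, and Mag, Mobp and Cldn11 of 5 for myelin. Snap25 and Nefm of 9 neuronal markers and Pvalb of 3 interneuron markers were lower. The median log2 fold change of the 7 choroid plexus and meninges markers was 0.00. The summed signal of the 10 choroid plexus and meninges markers was 24671.1 to 49522.8 in the saline hippocampus and 33194.6 to 49240 in the saline neocortex, and so overlapped. The part of these cells in the difference of Dcn was not tested.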

How the data were processed

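From 12 µg of TRIzol-extracted total RNA labelled cRNA was prepared, per the labels' protocols. The submitters' processing notes name MAS5 without a version, and the values the authors deposited are its linear signal intensity for each probe set. The arrays share a common scaled mean, so a value is relative to its array, and bright genes that rise lower the others. The number of arrays limits the precision, with a median SE of 0.171 (log2 scale) for kainate against saline in the hippocampus.

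The members and the gene lists were chosen with earlier results of these data known. The table held 12488 probe sets, of which 66 were controls, and 10833 had 1 gene symbol, 396 several and 1193 none, by the platform annotation. limma 3.58.1 in R 4.3.3 (lmFit, eBayes with intensity trend) was fitted to log2(signal + 16) over all probe sets past the filter. Comparisons within a region used its 17 arrays, and those across regions all 34, treated as independent since no label ties an array of one region to a mouse of the other. Of the 88 genes 62 passed in all 3 fits and 24 in none. The fit was tested on simulated data. Python 3.11.15 with matplotlib 3.10.9 made the figures.

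Named genes are all members called, the smallest p up to 6 a comparison, the 10 genes listed singly, and the largest kainate hippocampal estimate of each family. Same-numbered arrays correlated over 0.1 in all 5 pairs (0.118 to 0.278, deviations from group means) for kainate against nicotine in the hippocampus. For 2 of these 5 the best correlation was with their own number. The replicate block was run in every comparison, but of the pairs of groups looked at only this one had all correlations over 0.1. The labels do not state a pairing. Pairs of saline with kainate or nicotine hippocampal arrays were not all over 0.1, though the block held the saline arrays too. Alternatives were pseudocounts of 1 and 64, median centring, quantile normalization, no filter or the 50th percentile, no trend, array weights, other arrays in the fit, averaged probe sets, clusters by all 24 spikes as a block or the largest alone, the replicate block, and leaving out each array. Clusters by the 9 hybridisation spikes alone were added after seeing the data. A probe set named for Thbs1 with a further gene was left out.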

Additional observations from a re-analysis of the deposited data

Results flagged for a closer look

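In 13 of the 180 groups of arrays looked at, 1 array stood apart by Dixon's ratio of its gap to the range of the group, and chance flags about 1 in 20 groups. The ratio was 0.699 for Bgn in the saline neocortex, where array 6 was high at 1696.8, and 0.657 for Fn1, also with array 6 high. It was 0.811 for Dcn after kainate in the hippocampus, where array 3 was low at 2586.2 and the others were at 3387.1 or above. Itgav gave 0.689 in the saline neocortex (array 2 high), 0.651 in the nicotine neocortex (array 6 low) and 0.632 in the nicotine hippocampus (array 1 high). Itgb2l gave 0.752 in the kainate neocortex and 0.659 in the nicotine neocortex, with array 4 low in both. Lama2 gave 0.777 in the saline neocortex (array 3 low). Lum gave 0.647 there (array 6 low) and 0.745 in the kainate hippocampus (array 2 low). Thbs2 gave 0.701 in the saline hippocampus (array 1 low). The largest ratio was 0.858, for Vcan in the nicotine neocortex, where array 6 was at 66.1 and the next array at 366.5.

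The kainate effect on Itgb5 differed between the regions by a test of the difference itself, by 0.69 on the log2 scale (limma, adjusted p = 3.89e-03).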

How the results depend on the processing

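Of 3208 values of single genes under an alternative, 169 had the sign opposite to the reported value, and 0 of these were called either in the reported fit or under the alternative. Apart from the fits with 1 array left out, counts are given here only where they moved by more than a factor of 1.5. Single calls also came or went in settings not named here, as given above. For kainate against saline in the hippocampus the 4 calls became 2 with median centring and 1, Itgb5, in the largest hybridisation cluster (an alternative added after seeing the data), and 3 to 5 when 1 array was left out. For kainate against nicotine in the hippocampus the 3 calls became 5 with array weights, 5 with the hybridisation cluster as a block, 5 with the replicate block and 1 in the largest hybridisation cluster, and 2 to 4 with 1 array left out. For the saline regions the 6 calls became 3 with the 12 saline arrays alone, 2 with probe sets averaged, 1, Dcn, with the clusters by all spikes as a block and 1, Dcn, in the largest hybridisation cluster, and 3 to 7 with 1 array left out. For the difference of the kainate effects the 1 call became 0 with median centring, 0 with probe sets averaged, 0 in the largest hybridisation cluster and 2 with the 22 saline and kainate arrays, and was 1 in all 22 fits with 1 array left out. The other 4 comparisons had 0 calls in every alternative, and 0 to 0 with 1 array left out. The replicate block ended the calls of Ncan (adjusted p = 0.0891) and Timp2 (0.0501) between the saline regions, where arrays share only a number, and besides these and kainate against nicotine in the hippocampus it changed no count of calls. The cause of these changes was not tested. Fits on fewer arrays have less data by construction, and calls also ended in fits that kept every array, as with median centring or averaged probe sets. Dim probe sets limit what can be said of the 25 genes below the filter in the hippocampus, most metalloproteinases among them.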
